A study of Mus musculus with 2 samples.

Results

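The receptor tyrosine kinases outside the epidermal growth factor receptor family were examined in 4T1 cells, a line of mouse mammary tumour cells able to spread to the lung. The group was given as a list of 43 genes chosen by name, and all 43 were found among the 21911 genes of the deposited table. RNA was taken from 5000000 cells kept for 48 h with PBS, or for 48 h with potassium oxalate, with 1 library per condition. The dose of oxalate is given as 20 µM in the sample characteristics and in the methods of the study, and as 20 mM in the treatment protocol and design text of the deposit. Both groups are the same cell line in culture, and the labels name no genetic change. No replicate error can be had from single libraries, so no comparison of the conditions was tested, and each difference below is one between 2 libraries. In such bulk RNA, fewer cells with a transcript and less of it per cell cannot be told apart.

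Receptor tyrosine kinases are membrane proteins that bind a ligand outside the cell and carry a kinase domain inside it. Ligand binding brings receptors together, the kinase domains phosphorylate each other, and adaptor proteins that dock on the phosphorylated tails pass the signal to the RAS-MAPK, PI3K and other pathways. Epithelial tumour cells typically use a limited set of them, while other members mark endothelium, myeloid cells, mesenchyme, nerve or muscle. The comparison bears on which of these receptors the oxalate-treated tumour cells could use upstream of MAPK signaling, and on whether their mRNA levels differed with oxalate.

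Levels are given in FPKM (fragments mapped to a gene, divided by transcript length in kilobases and by the library's mapped total), a measure per length, so that levels of different genes can be set side by side. Over all genes the PBS values added up to 567163 FPKM and the oxalate values to 559026, and steps between low values put the depth at about 56.7 M and 36.5 M reads. Epithelial markers were high, with Epcam, Krt8, Krt18, Krt19 and Cdh1 between 125.33 and 429.31 FPKM in the libraries. The 6 endothelial markers summed to 0.16 FPKM with PBS and 0.27 with oxalate, with Cldn5 and Emcn listed at 0 in both. Of the 6 macrophage markers, Ptprc, Adgre1 and Itgam were listed at 0 in both libraries and Lyz2 reached 0.04 FPKM, whereas Cd14 was at 53.6 and 53 FPKM and Cd68 at 7.79 and 7.11. Of the 7 fibroblast and pericyte markers, 1 was at 1 FPKM or more, Col1a1, at 143.48 and 144.61 FPKM, while Lum and Rgs5 were listed at 0. The 5 neural and Schwann cell markers summed to 2.31 and 2.05 FPKM, nearly all of it Map2, and the 4 skeletal muscle markers to 0.12 and 0.13.

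The 4T1 cells expressed about as large a share of these receptors as of all genes. At 1 FPKM or more in both libraries there were 21 of 43 receptors (48.8%), against 46.4% of all listed genes, and 13 receptors (30.2%) were listed at 0 in both, against 36.4% of all listed genes. Of the remaining receptors, 2 (Fgfr3 and Ror1) lay between 0.1 and 1 FPKM, and 7 were below 0.1 FPKM in both libraries without being at 0 in both. The receptors listed at 0 were Fgfr4, Mst1r, Flt3, Kdr, Ret, Ros1, Ntrk2, Ntrk3, Epha3, Epha7, Ephb1, Ror2 and Musk. A limit of 3 reads corresponds to at most 0.018 FPKM with PBS and 0.028 FPKM with oxalate for these 13, which covers counting error only. The 7 trace receptors were Fgfr1, Mertk, Pdgfrb, Flt4, Tek, Tie1 and Alk, none above 0.08 FPKM, with an estimated 0 to 14 reads in the PBS library and 0 to 10 in the oxalate library.

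The expressed receptors were dominated by Axl. It made up 43% of the summed FPKM of the 43 receptors in each library, and Axl, Epha2 and Met together made up 67.8%. The sum itself was 803.32 FPKM in PBS and 847.96 FPKM in oxalate. The order of the 21 expressed receptors was nearly the same in both libraries, with 19 of 21 at the same rank. The exception was a pair of neighbours in that order, Ephb3 (6.37 and 5.97 FPKM) and Epha4 (5.94 and 7.05 FPKM), which exchanged places.

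**Figure D1:**
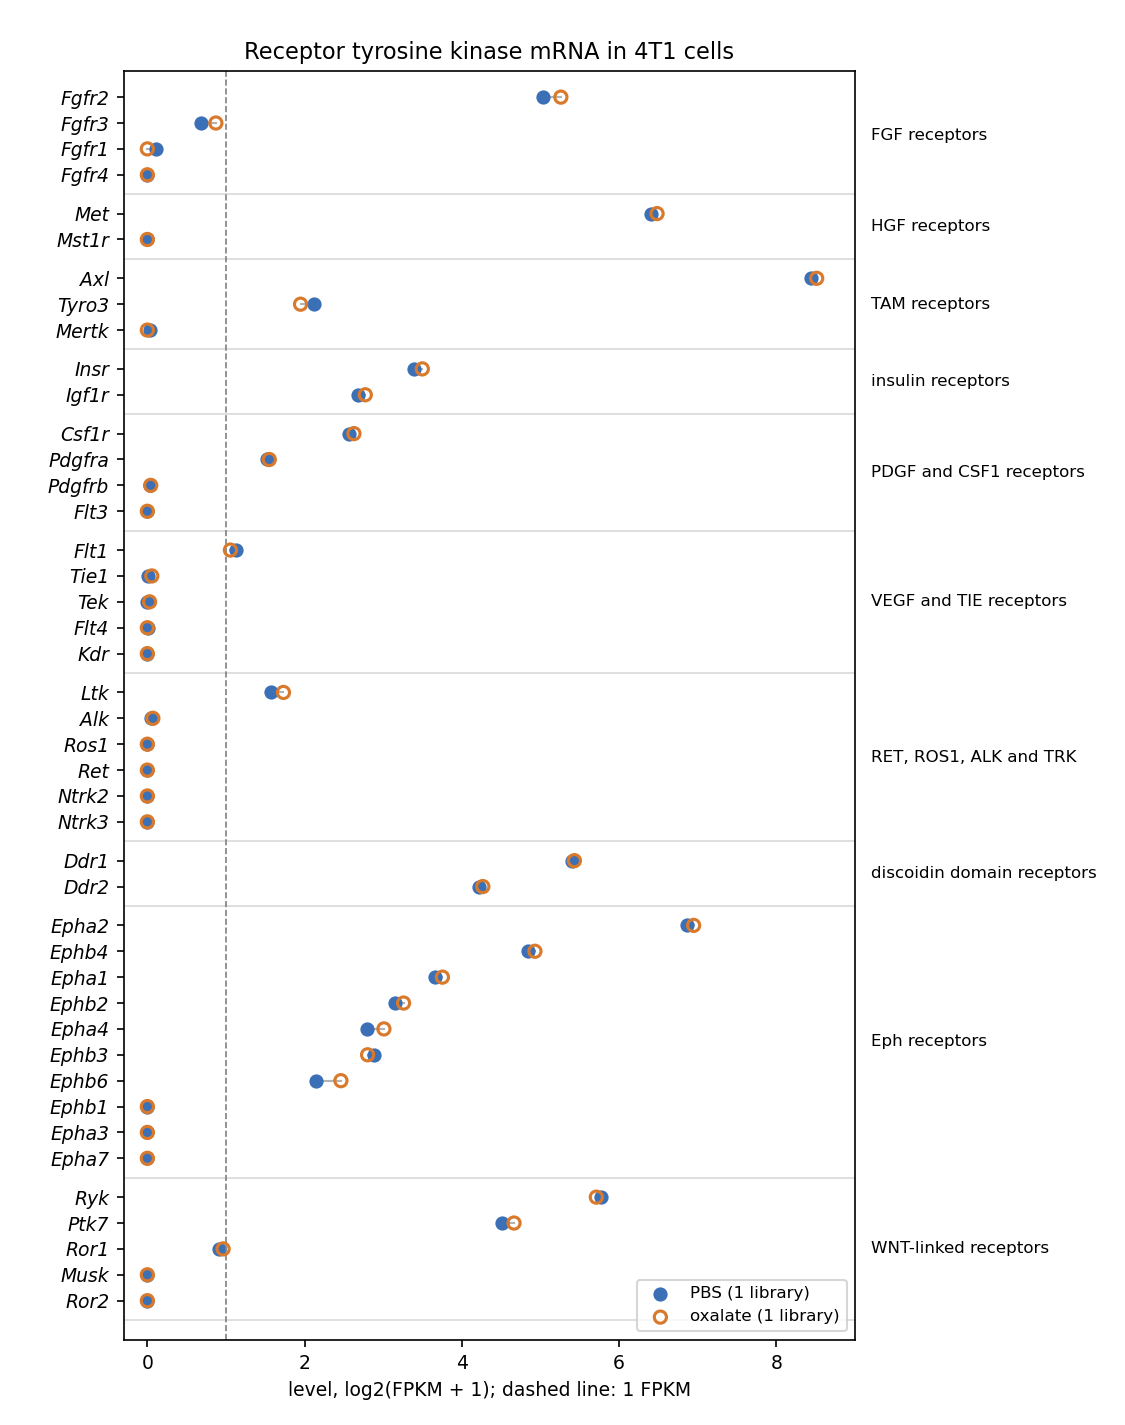
Level of each of the 43 receptors as log2(FPKM + 1), by family, with 1 filled point for the PBS library and 1 open point for the oxalate library. Axl, Epha2 and Met lie farthest to the right, 21 receptors lie right of the dashed line at 1 FPKM, and the 2 points of each receptor lie close together compared with the distances between receptors.

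Differences are given as log2((oxalate + 1)/(PBS + 1)), where the 1 is a pseudocount in FPKM that shrinks the differences of low genes. Beside it stands, for some receptors, a 95% interval for the log2 ratio without a pseudocount, exact by Clopper-Pearson and computed from estimated reads. It covers counting error only and says nothing of the spread between cultures.

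The TAM receptors bind GAS6 and protein S, ligands that bridge them to phosphatidylserine on dying cells, and AXL is known in carcinoma for invasion and drug tolerance. Axl (ENSMUSG00000002602, chromosome 7, 25757273 to 25788705 on GRCm38) reached 345.66 FPKM in PBS and 364.26 FPKM in oxalate, rank 199 of all listed genes by mean level. The log2 fold change of Axl was 0.075, and the counting interval of its log2 ratio was 0.057 to 0.094. Tyro3, the TAM receptor best known from the nervous system, was at 3.33 and 2.86 FPKM, a log2 fold change of -0.17 and the lowest of the expressed receptors. Mertk, which macrophages use to engulf dying cells, was at 0.02 FPKM in PBS and at 0 in oxalate. The cells thus held 1 TAM receptor at a very high level, 1 at a low level and 1 at trace.

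Met (ENSMUSG00000009376, chromosome 6, 17463800 to 17573980), the receptor of hepatocyte growth factor, ranked below Axl and Epha2 at 83.69 and 88.42 FPKM. Its log2 fold change was 0.078, with a counting interval of the log2 ratio from 0.042 to 0.12. Mst1r, its close relative that encodes RON, was listed at 0 in both libraries.

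The Eph receptors bind ephrins on neighbouring cells and guide cell sorting, repulsion and boundaries in epithelia. They were the family with most expressed members, 7 of the 10 on the given list. They made up 22.2% of the summed receptor FPKM with PBS and 22.5% with oxalate. Epha2 (ENSMUSG00000006445, chromosome 4, 141301240 to 141329384), an EphA receptor frequent in carcinoma, was at 115.45 and 122.43 FPKM, a log2 fold change of 0.084 with a counting interval from 0.057 to 0.11. Ephb4 followed at 27.75 and 29.47 FPKM, then Epha1 at 11.66 and 12.48, and Ephb2 at 7.86 and 8.57. Epha1 shares 236 exonic bases (6.01%) on the opposite strand with Zyx, at 144.77 and 147.47 FPKM, and reads of the pair cannot be told apart there without strand. Epha2, Ephb4, Epha1 and Ephb2 were each slightly higher in the oxalate library, with log2 fold changes from 0.084 to 0.11. Epha4 (log2 fold change 0.21) and Ephb6 (0.32) had larger differences, and Ephb3 was lower with oxalate (-0.081). Ephb6 (ENSMUSG00000029869, chromosome 6, 41605482 to 41620509), an Eph receptor whose kinase domain lacks catalytic activity, was at 3.41 FPKM in PBS and 4.51 FPKM in oxalate, the largest difference of any expressed receptor. Behind these levels stood about 408 and 347 estimated reads, and the counting interval of that log2 ratio was 0.19 to 0.61. Epha3, Epha7 and Ephb1 were listed at 0.

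The receptors linked to WNT proteins include several with an inactive kinase domain. Ryk (ENSMUSG00000032547), a WNT-binding pseudokinase, was at 53.52 and 51.35 FPKM, a log2 fold change of -0.059 with a counting interval from -0.11 to -0.0088. Ptk7, a pseudokinase of planar cell polarity, was at 21.7 and 24.34 FPKM, a log2 fold change of 0.16 with an interval from 0.10 to 0.23. Ryk and Ptk7 thus lay on opposite sides of 0. Ror1, a receptor of WNT5A, was just under the 1 FPKM line at 0.88 and 0.95 FPKM, while Ror2 and Musk, the receptor kinase of the neuromuscular junction, were listed at 0.

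The discoidin domain receptors are activated by collagen. Ddr1, the epithelial member, was at 41.4 and 42.15 FPKM and Ddr2, better known from mesenchymal cells, at 17.53 and 18.25 FPKM. Their log2 fold changes were 0.025 and 0.055, and the counting intervals of both log2 ratios spanned 0, so no difference could be detected with these read numbers.

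Of the FGF receptors, Fgfr2 was the expressed one. Fgfr2 (ENSMUSG00000030849, chromosome 7, 130162451 to 133123350), whose epithelial splice form answers to FGFs made by stroma, was at 31.61 FPKM in PBS and 37.3 FPKM in oxalate. Its log2 fold change was 0.23 and the counting interval of its log2 ratio was 0.17 to 0.30. The gene has 17 coding transcripts in the annotation and shares 314 exonic bases on the same strand with Ctbp2 (64.31 and 62.4 FPKM), so that its level is less certain than those of Axl or Epha2. Fgfr3 was at 0.6 and 0.83 FPKM, Fgfr1, typical of mesenchymal cells, at 0.08 FPKM with PBS and 0 with oxalate, and Fgfr4, known from liver, at 0 in both.

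Both insulin receptor family members on the given list were expressed at moderate levels. Insr was at 9.45 and 10.29 FPKM (log2 fold change 0.11) and Igf1r at 5.38 and 5.83 FPKM (log2 fold change 0.098), and the counting intervals of both lay above 0.

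Counted over the given list, the PDGF and CSF1 receptors held 2 of 4 members at 1 FPKM or more in both libraries. The VEGF and TIE receptors held 1 of 5, and RET, ROS1, ALK and the TRK receptors with their relative Ltk 1 of 6. Among the endothelial receptors, Kdr, the main signaling receptor of VEGF, was listed at 0, and Flt4, Tek and Tie1 did not pass 0.04 FPKM. Flt1, a VEGF receptor that binds VEGF tightly but signals weakly, was at 1.18 and 1.08 FPKM (log2 fold change -0.068), in cells whose endothelial markers were near 0. Csf1r, the receptor that macrophages need for survival, was at 4.93 and 5.18 FPKM (log2 fold change 0.060), although Ptprc, Adgre1 and Itgam were listed at 0. Of the exonic bases of Csf1r, 15.1% overlap Hmgxb3 (13.02 and 13.65 FPKM) on the opposite strand, and since it is not stated whether counting used strand, reads of the pair cannot be told apart there. Pdgfra was at 1.88 and 1.93 FPKM (log2 fold change 0.025), whereas Pdgfrb, the pericyte receptor, was at 0.02 and 0.03 FPKM and Flt3, a receptor of blood progenitors, at 0. Ltk, a relative of ALK, was at 1.97 and 2.32 FPKM (log2 fold change 0.16), from an estimated 288 and 218 reads, and its counting interval of -0.025 to 0.49 spanned 0. Alk was at 0.03 and 0.05 FPKM, and Ret, Ros1, Ntrk2 and Ntrk3, the last 2 being neurotrophin receptors, were listed at 0.

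Promoter sequence, which played no part in choosing the receptors, was set beside these levels. The receptors listed at 0 and the expressed receptors had similar CG content. RefSeq promoter windows (250 bases before to 50 bases after the gene start, GRCm38.p6) were found for 37 of the 43 receptors, and the CG dinucleotides in each 300-base window were counted, taking the window with most where a gene has several. CG-rich windows mark promoters of the CpG island type. The expressed receptors had a median of 22 CG (2 to 48, 19 genes) and the receptors listed at 0 a median of 18 (4 to 32, 11 genes). Among the other listed genes the corresponding medians were 23 (8079 genes) and 3 (5788 genes). Windows with at least 10 CG were found for 15 of 19 expressed receptors (78.9%) and 8 of 11 receptors listed at 0 (72.7%), against 91.3% and 25% of the other listed genes in the same classes. Axl, the highest receptor by level, had 6 CG in its window.

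The 200 bases before the RefSeq gene start of 5 receptors show this range, with every CG in capitals and each sequence written 5′ to 3′ on the strand of the gene. Axl (chr7:25788734-25788933, minus strand) and Epha2 (chr4:141301021-141301220, plus strand) are the receptors with the highest levels. Igf1r (chr7:67952057-67952256, plus strand) has the most CG among the 37 receptors with a window. Epha3 (chr16:63864176-63864375, minus strand) and Ror2 (chr13:53286125-53286324, minus strand) are receptors listed at 0.
Axl: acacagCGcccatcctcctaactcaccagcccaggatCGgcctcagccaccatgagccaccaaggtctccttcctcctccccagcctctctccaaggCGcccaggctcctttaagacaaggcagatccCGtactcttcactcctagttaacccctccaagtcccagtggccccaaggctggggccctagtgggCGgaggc
Epha2: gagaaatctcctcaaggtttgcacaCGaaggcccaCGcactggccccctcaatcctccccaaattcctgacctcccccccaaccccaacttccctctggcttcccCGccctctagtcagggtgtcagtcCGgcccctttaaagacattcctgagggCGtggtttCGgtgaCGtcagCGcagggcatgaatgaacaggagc
Igf1r: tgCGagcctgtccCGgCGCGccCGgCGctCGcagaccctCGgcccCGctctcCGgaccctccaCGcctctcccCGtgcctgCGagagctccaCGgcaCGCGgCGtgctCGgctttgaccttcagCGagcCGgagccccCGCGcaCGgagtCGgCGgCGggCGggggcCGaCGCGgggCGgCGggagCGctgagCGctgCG
Epha3: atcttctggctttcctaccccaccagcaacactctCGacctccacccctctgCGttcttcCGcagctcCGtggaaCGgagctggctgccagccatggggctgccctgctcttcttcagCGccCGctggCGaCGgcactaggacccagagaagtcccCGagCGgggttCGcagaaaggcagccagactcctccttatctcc
Ror2: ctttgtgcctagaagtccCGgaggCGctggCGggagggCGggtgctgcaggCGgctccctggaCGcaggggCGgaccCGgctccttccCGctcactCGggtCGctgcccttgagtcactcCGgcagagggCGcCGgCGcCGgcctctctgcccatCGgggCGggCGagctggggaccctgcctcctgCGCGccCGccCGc
The RefSeq starts can differ from the GENCODE M21 coordinates given for the genes: the stretch of Igf1r lies 571 bases before the M21 start, that of Axl 29, that of Epha2 20 and those of Epha3 and Ror2 1. These stretches hold 5 CG for Axl, 8 for Epha2, 35 for Igf1r, 12 for Epha3 and 23 for Ror2. The 5 were chosen after the levels and counts were seen and show the spread, not a trend with level. Over the 300-base windows, the expressed receptors Met, Ddr1 and Ryk had 34, 39 and 42 CG, and Ros1, Musk and Mst1r, listed at 0, had 4, 8 and 9.

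**Figure D2:**
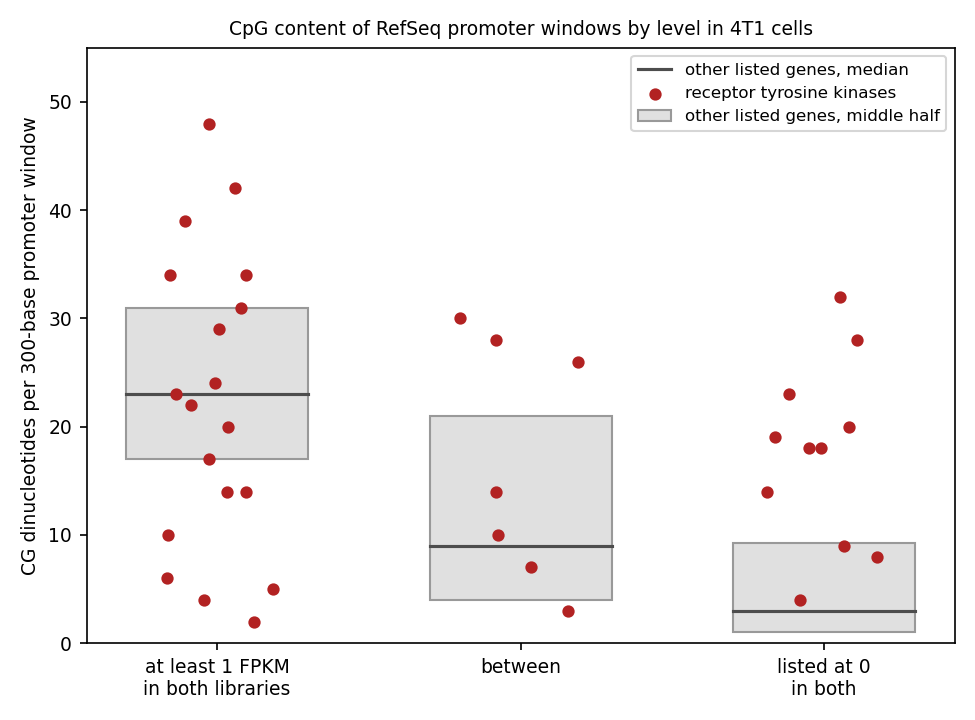
Number of CG dinucleotides in the 300-base RefSeq promoter window (vertical axis) of receptors in 3 classes of level, 1 point per receptor, with a sideways spread that has no meaning. Grey boxes run from the lower to the upper quartile of the other listed genes in each class, with a line at their median. That median falls from 23 to 3, while the receptors listed at 0 have a median of 18 (4 to 32, 11 genes). The other listed genes were not matched to the receptors by kind of gene.

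The GC box GGGCGG, searched on both strands, occurred in the windows of 15 of 19 expressed receptors (78.9%) and 6 of 11 receptors listed at 0 (54.5%). The shares were 72.7% and 23.8% for the other listed genes, and 38.2% for all 27027 genes with a window, listed or not. Each GC box contains a CG, so the 2 counts overlap. The TATA motif TATAAA, also on both strands, was found for 3 of 37 receptors (Ddr2, Flt1 and Ryk), against 14.3% of the other listed genes. All 3 were expressed: 3 of 19 expressed receptors (15.8%) had it, against 7.74% of the other expressed genes. It was found for 0 of 11 receptors listed at 0, against 23.8% of the other genes listed at 0. A match is a string of letters in this window and not a bound site.

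None of the receptors with a mean of at least 1 FPKM differed 2-fold between the libraries. Of these 21, 0 passed 2-fold and 0 passed 1.5-fold, where 0.653% and 1.99% of all 10267 genes with a mean of at least 1 FPKM did. By direction, 0.292% of those genes were at least 2-fold higher and 0.36% at least 2-fold lower in the oxalate library. With this pseudocount the receptors below 0.1 FPKM could not pass 2-fold: Fgfr1, at 0.08 FPKM in PBS and 0 in oxalate, had an estimated 14 and 0 reads, and its counting interval lay below 0. Small differences of the 21 were mostly in 1 direction. Of the 21, 17 (81.0%) were higher and 4 (Tyro3, Flt1, Ephb3 and Ryk) lower in the oxalate library, against 50.6% of all tested genes higher and 49% lower. The median log2 fold change of the 21 was 0.084, beside 0.0031 for all tested genes, and their range was -0.17 to 0.32. Within 1.2-fold lay 20 of the 21, beside 90.1% of all tested genes, and the exception was Ephb6.

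Counting error was smaller than the difference for 13 of the 21 receptors (61.9%), since their counting intervals left out 0. That share was 48.8% of the 10261 tested genes with a known length, so an interval without 0 was common at this depth. The interval lay above 0 for Fgfr2, Met, Axl, Igf1r, Insr, Epha2, Epha4, Ephb2, Ephb4, Ephb6 and Ptk7, and below 0 for Tyro3 and Ryk, beside 25% and 23.8% of the tested genes. It spanned 0 for Pdgfra, Csf1r, Flt1, Ltk, Ddr1, Ddr2, Epha1 and Ephb3. Of the 21, 18 have several coding transcripts, so their reads rest on a mean transcript length.

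**Figure D3:**
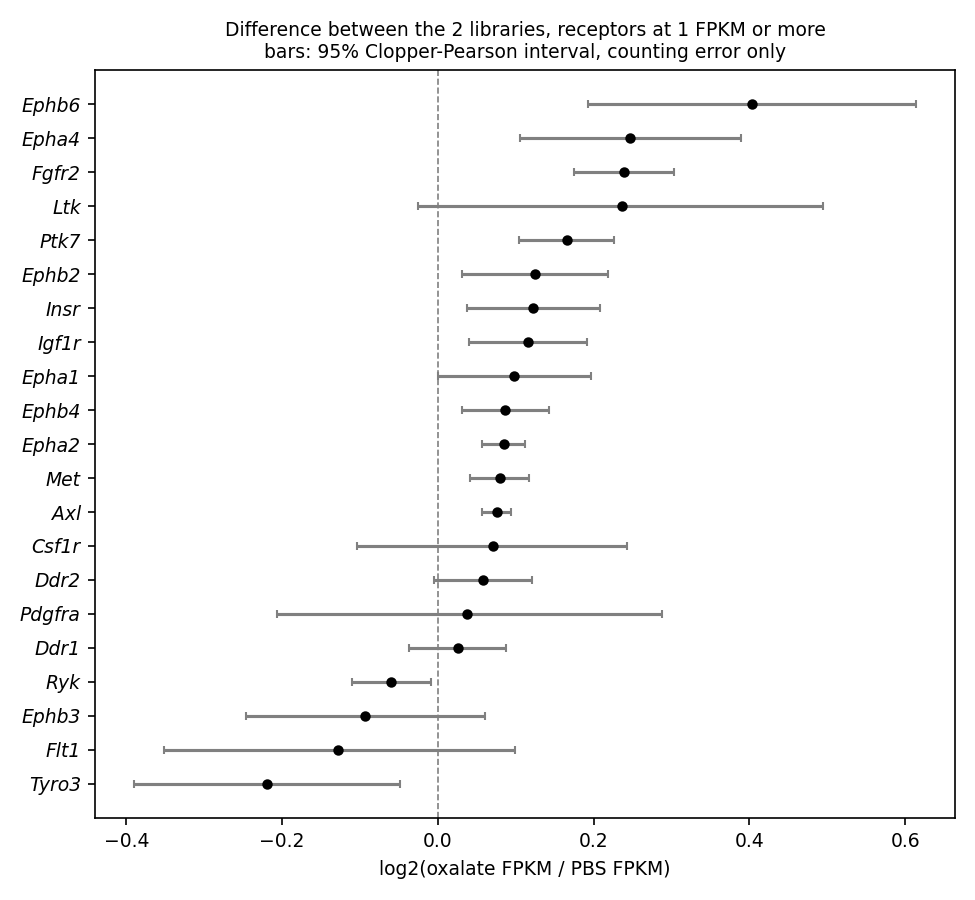
Log2 ratio of the oxalate to the PBS library (horizontal axis, no pseudocount) for the 21 receptors with a mean of at least 1 FPKM, with 95% counting intervals from estimated reads as bars. Intervals of 11 receptors lie above 0, those of Tyro3 and Ryk below it, and the widest belong to receptors with few reads such as Ltk and Pdgfra.

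GC content and length moved with the log2 fold change across all tested genes, and the receptors were not typical in either. Their median GC content was 55.3% against 51.0% for all tested genes, and their median transcript length was 3110.5 bases against 2187. With the tested genes divided into 3 bins of equal size, none of the 21 was in the bin of lowest GC content or in that of the shortest transcripts. The median log2 fold change of all genes was -0.038 in the bin of lowest GC content, 0.017 in the middle and 0.030 in the highest, and the receptors had 0.078 (9 genes) in the middle bin and 0.084 (12 genes) in the highest. By length the medians of all genes were -0.023, 0.0043 and 0.025, and those of the receptors 0.11 (8 genes) in the middle and 0.084 (13 genes) in the longest bin. In the middle and highest GC bins 55.9% and 58.8% of all genes were higher with oxalate, beside 7 of 9 and 10 of 12 receptors. In the middle and longest length bins 50.9% and 58.0% of all genes were higher, beside 6 of 8 and 11 of 13 receptors. The part of GC content and length in the direction of the receptors was not tested.

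**Figure D4:**
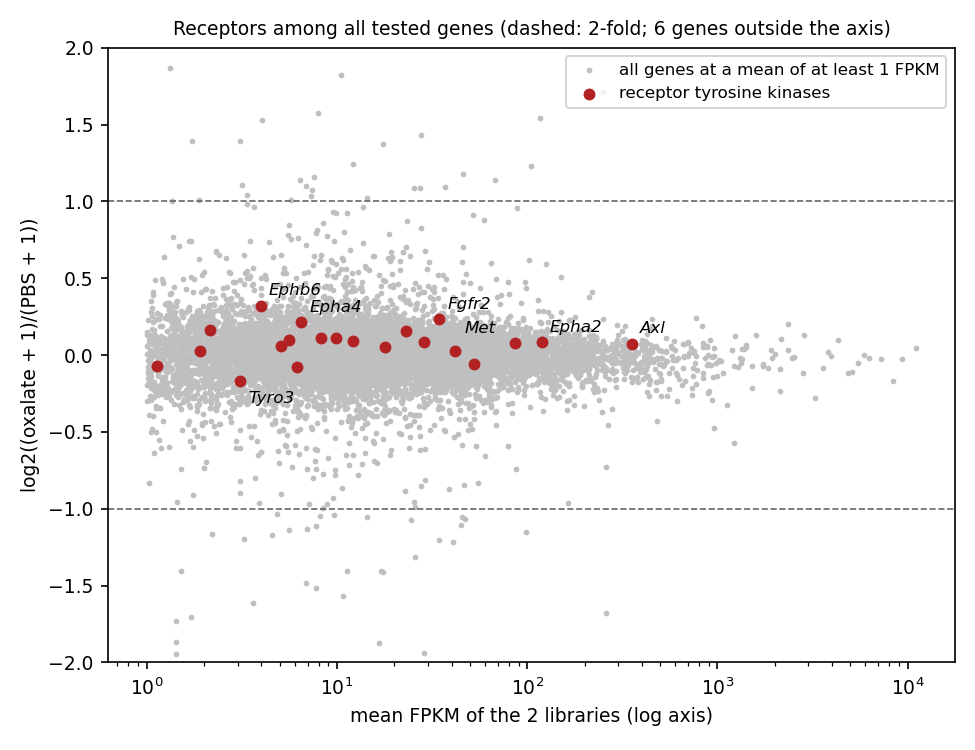
Log2((oxalate + 1)/(PBS + 1)) against the mean FPKM (log axis) for all 10267 tested genes in grey and the 21 receptors in red, with dashed lines at 2-fold and 6 grey genes outside the vertical axis. All receptors lie between -0.17 and 0.32, inside the grey cloud and far from the dashed lines.

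The ligands were taken from a list written from general knowledge, of 77 ligands, co-receptors and ligand-processing proteins. Of these 33 had a mean of at least 1 FPKM, as did 10267 of all 21911 listed genes. Of the 33, 19 were higher and 14 lower in the oxalate library. Their median log2 fold change was 0.017, with 0 past 2-fold in either direction, beside 0.653% of all tested genes. For several receptors the cells held a receptor while its ligands on this list were below 1 FPKM. The list holds only some of the FGFs and no insulin gene, and ligands outside it were not examined. Gas6 was at 0.28 FPKM in PBS and 0.02 FPKM in oxalate and Pros1, protein S, at 0.06 and 0 FPKM, beside Axl at 345.66 and 364.26 FPKM. The Gas6 values correspond to an estimated 40 and 2 reads, a ratio of 0.071 with a counting interval from 0.0091 to 0.30. The mean of Gas6 was under the 1 FPKM needed to count as changed. Hgf, the ligand of MET, was listed at 0 in both libraries, whereas St14, an activating protease of HGF, was at 93.65 and 97.19 FPKM, and its inhibitors Spint1 and Spint2 at 48.89 and 51.5 FPKM and at 174.51 and 165.17 FPKM. Igf2 was listed at 0 and Igf1 at 0.04 FPKM with PBS and 0 with oxalate, while the secreted IGF-binding proteins Igfbp7 (270.69 and 268.69 FPKM) and Igfbp4 (195.75 and 180.5) and the clearance receptor Igf2r (58.77 and 63.73) were high. Of the 11 genes on the FGF list, 1 had a mean of at least 1 FPKM. It was Fgfbp1, a carrier that releases FGFs from matrix, at 89.68 and 95.14 FPKM, and next came Fgf7 (0.7 and 0.64) and Fgf2 (0.36 and 0.71).

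For other families the cells held the ligand with no receptor, or with one under 2 FPKM. Artn, a ligand of the RET system, was at 20.14 and 19.15 FPKM and Gdnf and Nrtn, of the same family, at 1.52 and 1.8 FPKM and at 1.41 and 1.42 FPKM, while Ret and the co-receptors Gfra1, Gfra2 and Gfra3 were listed at 0. Bdnf was at 3.39 and 3.59 FPKM and Ntf5 at 1.32 and 1.24 FPKM, with Ntrk2 at 0. Vegfc, a ligand of the receptor encoded by Flt4, was at 18.77 and 19.04 FPKM with Flt4 at 0.01 and 0, and the co-receptor Nrp2 was at 79.88 and 81.55 FPKM. Vegfb, a ligand of FLT1, was at 71.88 and 68.54 FPKM beside Flt1 at 1.18 and 1.08 FPKM. Pdgfb was at 21.79 and 20.85 FPKM and Pdgfa at 19.56 and 15.73 FPKM, a log2 fold change of -0.30 and the lowest among the 33 ligand genes at a mean of at least 1 FPKM, beside Pdgfra at under 2 FPKM. Flt3l was at 4.81 and 3.89 FPKM with Flt3 at 0.

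A ligand and a receptor at about 5 FPKM or more were both present for CSF1, collagen and ephrins. Csf1 was at 114.33 and 115.72 FPKM beside Csf1r at about 5 FPKM. Col4a1 (208.6 and 224.63 FPKM), Col1a1 (143.48 and 144.61) and Col4a2 (71.57 and 79.26) stood beside Ddr1 and Ddr2, whereas Col1a2, the partner chain of type I collagen, was at 0.88 and 0.33 FPKM. The Col1a2 values gave a ratio of 0.375 with a counting interval from 0.25 to 0.53, and its mean was under the 1 FPKM needed to count as changed. Among the ephrins, Efnb2 (47.85 and 45.46 FPKM) was highest, followed by Efna1 (18.62 and 29.69) and Efnb1 (8.8 and 7.43). Efna1 (ENSMUSG00000027954, chromosome 3, 89271733 to 89281142), a ligand of EPHA2, was the 1 gene past 1.5-fold among the 33 ligand genes with a mean of at least 1 FPKM, with a log2 fold change of 0.65 and a ratio of 1.59 (counting interval 1.49 to 1.71). Of all tested genes 1.99% passed 1.5-fold. Efna1 has 3 coding transcripts, so its read numbers rest on their mean length. Epha2 and the other EphA receptors of the given list at 1 FPKM or more, Epha1 and Epha4, were each higher by less than 1.2-fold.

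**Figure D5:**
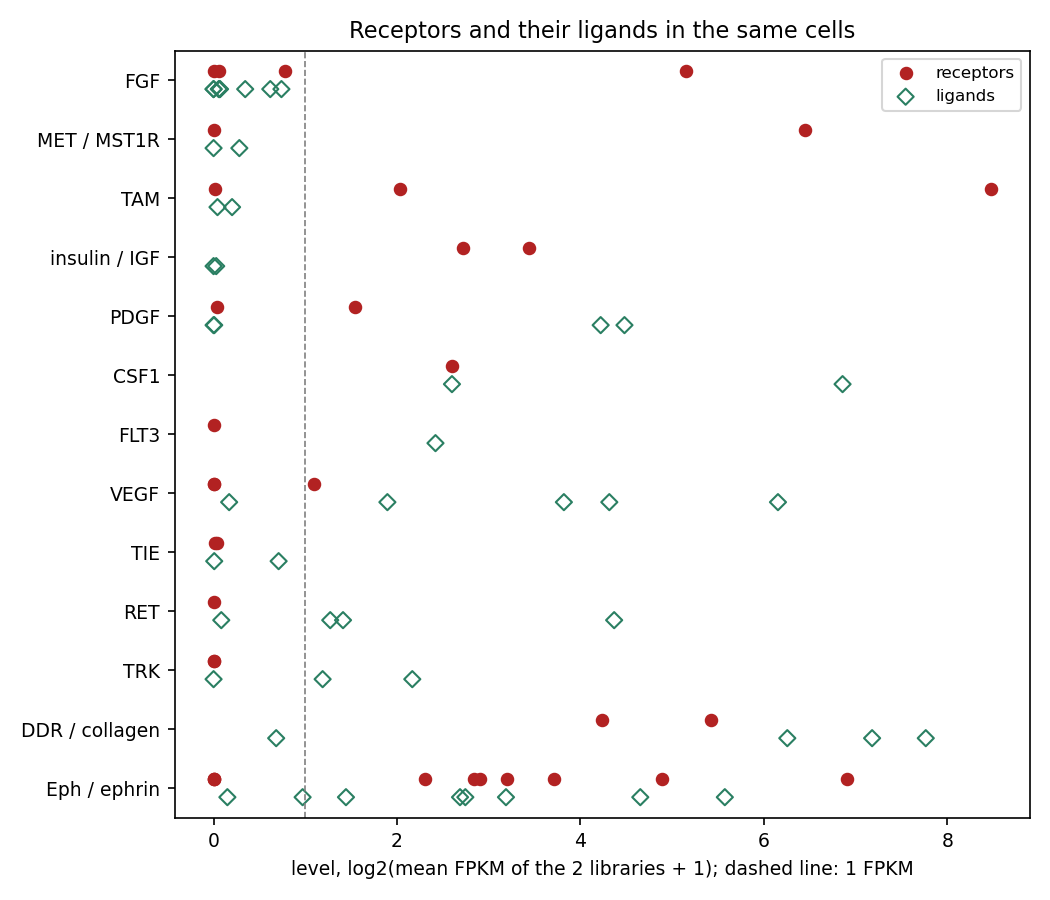
Mean level of receptors (filled circles) and of their ligands on the list (open diamonds) as log2(FPKM + 1), by family, with a dashed line at 1 FPKM. Met and Axl lie far right of their ligands. The highest ligand lies far right of every receptor for PDGF, CSF1, VEGF and RET. Other points of these rows do not: Mst1r and Mertk lie near 0, and Il34 lies level with Csf1r.

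The remaining ligands were low or single. Agrn, which activates MUSK through LRP4 at the synapse, was at 52.43 and 59.13 FPKM (log2 fold change 0.17), with Musk at 0 and Lrp4 at 0.08 and 0.12 FPKM. Wnt5a, the ligand of the ROR receptors, was listed at 0 and Wnt5b was at 0.22 and 0.15 FPKM. Of the ligands of ALK, LTK and ROS1, Alkal1 and Alkal2 were listed at 0, Ptn was at 0.57 and 0.37 FPKM, Mdk at 0.4 and 0.23, and Nell2 at 0 and 0.04.

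The proteins that carry the signal from the receptors were nearly all expressed. Of 32 adaptors and effectors, listed from general knowledge, 29 had a mean of at least 1 FPKM. Of all 21911 listed genes 10267 did. Of the 29, 14 were higher and 15 lower, with a median log2 fold change of -0.0031 and 0 past 2-fold or 1.5-fold. Of all tested genes only 0.653% passed 2-fold and 1.99% passed 1.5-fold. Ptpn11, which encodes the phosphatase SHP2, a positive relay from receptors to RAS, had the lowest log2 fold change of the list, -0.51, at 51.33 and 35.63 FPKM. The highest log2 fold changes of the list were those of Crk, an adaptor (32.27 and 40.61 FPKM), and Sos2, a RAS exchange factor (8.71 and 11.12 FPKM), both at 0.32. Shc1, an adaptor to GRB2, was at 50.12 and 38.87 FPKM (-0.36), and Pik3r2, a regulatory subunit of PI3K, at 50.75 and 50.64 FPKM. Of 20 negative regulators and sheddases 19 had a mean of at least 1 FPKM, with 11 higher and 8 lower, a median log2 fold change of 0.033 and 0 past 2-fold. The highest were the phosphatase Ptprf (73.61 and 79.94 FPKM), the lipid phosphatase Inppl1 (42.68 and 46.07) and Adam10 (44.88 and 42.91), a protease that sheds receptors such as AXL and MET.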

How the data were processed

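Poly(A) RNA of the PBS and the oxalate 4T1 culture was made into 1 randomly primed Illumina library each. For every gene and library the authors deposited an FPKM value, rounded to 2 decimals. The submitters' processing notes name TopHat2 2.1.1 and Bowtie2 2.2.8. The quantification tool, genome build, annotation and use of strand are not given in the sources used here. FPKM is scaled to the library total, so a shift of a few abundant genes would move all others.

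Ensembl identifiers were given symbols, lengths, GC content and coordinates from GENCODE M21 (GRCm38), and 21848 of 21911 matched. The authors' annotation may differ. The log2 fold change used a pseudocount of 1 over genes with a mean of at least 1 FPKM, and a gene counted as changed at 2-fold. No test was possible. Reads were estimated from the value of 1 read, 0.0176 and 0.0274 FPKM times kb, fitted on genes with 1 transcript shorter than 700 bases, and from the mean length of coding transcripts. All of 81 PBS and 74 oxalate values of up to 10 reads lay within 0.2 of a whole number, by a step chosen on them. Scripts were tested on simulated data. Members and lists were chosen with earlier results of these data known. Named list genes are the 3 highest by mean of each list and those past 1.5-fold, and other ligands, adaptors and promoters named were chosen after their values were seen. Tools were scipy 1.17.1, matplotlib 3.10.9, pandas 2.3.3 and numpy 2.4.6 under Python 3.11.15.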

Additional observations from a re-analysis of the deposited data

How the results depend on the processing

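No paired analysis was possible because there is a single library of each kind, and no replicate could be left out. The number of expressed receptors was 21, and 23 at 0.1 FPKM, 15 at 5 FPKM and 21 by the mean of the libraries. The median log2 fold change of 0.084 was 0.085 with a pseudocount of 0.1 or 0.001, 0.081 after rescaling and 0.077 as a mean. Over all 43 receptors, 13 of them listed at 0, it was 0.025. At a mean of at least 5 FPKM it was 0.084. The number past 2-fold among receptors with a mean of at least 1 FPKM was 0 with both smaller pseudocounts and after rescaling, and 0 passed 1.5-fold. It was also 0 without the filter, where a pseudocount of 1 keeps the trace receptors from passing, and a 5 FPKM filter or a 4-fold threshold could give no other count. In settings added after seeing the data, 17 of 21 receptors were higher after rescaling, 23 of 43 without a filter and 14 of 16 at a mean of at least 5 FPKM. The 13 counting intervals without 0 became 16 with exon-union lengths or the longest coding transcript. The 63 values of the 21 expressed receptors, under both smaller pseudocounts and rescaling, kept their direction and moved by less than their counting error. Depth limits the low receptors: 3 reads are worth up to 0.028 FPKM in those listed at 0.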

Other observations

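Some of the receptors are neighbours in the genome, and most of the closest pairs differed in level. Pdgfrb and Csf1r lie 15.5 kb apart on chromosome 18, in the same orientation and with no listed gene between them, and were at 0.02 and 0.03 FPKM and at 4.93 and 5.18 FPKM in the PBS and oxalate libraries. Flt3 and Flt1 lie 161.1 kb apart on chromosome 5 with 1 listed gene between them, and Flt3 was listed at 0 while Flt1 was at 1.18 and 1.08 FPKM. Ephb1 and Ryk lie 480.2 kb apart on chromosome 9, with Ephb1 listed at 0 and Ryk at 53.52 and 51.35 FPKM. Ltk and Tyro3, 37.3 kb apart on chromosome 2 on opposite strands, were both expressed at a low level. Ltk was higher (log2 fold change 0.16) and Tyro3 lower (-0.17) in the oxalate library, but the counting interval of Ltk spanned 0. These pairs are the 4 closest among the receptors, and no test was made of them.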
